A study of Homo sapiens with 6 samples.

Results

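The genes described here are long intergenic non-coding RNA genes, called LINC genes for their symbols, in SKOV3 cells, a human ovarian cancer line in long use. A gene was a member if its platform symbol was LINC followed by digits and its mean reached 4.3 on the log2 scale in either culture. The brightest probe set over all 6 arrays stood for each gene. Of 458 such genes on the arrays 159 were members, out of 14884 named genes in all. A named gene had a probe set that the platform annotation gave 1 symbol alone. Genes described below as not measured had no such probe set, although other probe sets may read them. The members were thus chosen by their mean levels in 2D and 3D, which are given as a description with no test.

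The attached cultures (2D, 3 arrays) grew for 11 days on ordinary plates, and the suspended cultures (3D, 3 arrays) for 11 days on low-attachment plates with 0.015% (w/v) of the additive FP001. Both used McCoy's 5A medium and 15% serum, and the treatment protocol names water as the alternative to FP001. Plate and additive changed together and cannot be told apart, and all arrays come from 1 cell line. The labels do not say whether the arrays of a culture came from separate dishes, so p-values measure only the spread between these arrays. A change is 3D minus 2D in log2 units. Bulk RNA cannot tell fewer cells with a transcript from less of it per cell.

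Long non-coding RNAs are transcripts that carry no known protein-coding frame, and the intergenic ones lie between protein-coding genes. Some act on the chromatin of nearby genes, others bind proteins or microRNAs away from their locus, and for many no function is known. They are typically less abundant and more restricted to certain cell types than messenger RNAs, and several are studied in cancers, the ovarian ones included. The symbol does not say what such a gene does. In RefSeq, LINC01088 overlaps the protein-coding gene NAA11 and LINC01106 overlaps LIMS4.

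LINC01088, which has been studied in ovarian epithelial cells, rose most among the LINC genes, and LINC03033 fell most. RefSeq lists LncRNA-CAF as another name of LINC03033, a transcript described in cancer-associated fibroblasts. Their promoter windows, 250 bases before to 50 after the RefSeq start (build GRCh38.p14), are shown because these genes mark both ends of the changes. LINC01088 starts on the plus strand of chromosome 4 (chr4:78971498-78971797) and LINC03033 on the plus strand of chromosome 14 (chr14:61570290-61570589). Each window holds 1 CpG, whereas the median of the 348 LINC windows was 5 and that of all 35116 windows was 14. Called LINC genes differed in this: the median was 4 for 7 windows of genes called higher and 10 for 8 of genes called lower.
LINC01088: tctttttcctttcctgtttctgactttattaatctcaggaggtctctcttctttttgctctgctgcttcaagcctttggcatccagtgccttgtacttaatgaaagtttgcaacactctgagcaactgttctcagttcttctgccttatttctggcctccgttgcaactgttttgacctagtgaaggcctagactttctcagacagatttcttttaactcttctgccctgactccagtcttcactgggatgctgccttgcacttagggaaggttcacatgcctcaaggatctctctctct
LINC03033: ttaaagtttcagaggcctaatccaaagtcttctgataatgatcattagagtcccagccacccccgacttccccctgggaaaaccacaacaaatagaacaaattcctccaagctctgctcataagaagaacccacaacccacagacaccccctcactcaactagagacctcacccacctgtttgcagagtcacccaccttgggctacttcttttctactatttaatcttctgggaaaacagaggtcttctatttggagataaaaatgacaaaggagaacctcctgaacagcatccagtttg

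A pair of genes that rose together, LINC01106 and LINC01123, starts in nearly the same sequence. LINC01106 lies on the minus strand (chr2:110384487-110384786) and LINC01123 on the plus strand (chr2:109986730-109987029) of chromosome 2. The windows share 1 unbroken stretch of 289 bases, in capitals below, which begins at position 12 of the first and position 1 of the second and holds 0 mismatches. Probe sequences were not analysed here, so whether their probe sets read separate transcripts was not tested, and their 2 changes are uncertain as separate results.
LINC01106: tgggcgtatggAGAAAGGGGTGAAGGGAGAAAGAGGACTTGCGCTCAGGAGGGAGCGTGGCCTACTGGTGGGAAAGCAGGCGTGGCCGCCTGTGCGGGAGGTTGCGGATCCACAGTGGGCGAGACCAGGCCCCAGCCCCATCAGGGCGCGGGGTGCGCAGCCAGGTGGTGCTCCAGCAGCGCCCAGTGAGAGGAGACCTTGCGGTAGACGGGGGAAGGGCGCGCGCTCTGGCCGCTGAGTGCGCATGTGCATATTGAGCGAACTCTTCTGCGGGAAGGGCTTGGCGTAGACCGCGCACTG
LINC01123: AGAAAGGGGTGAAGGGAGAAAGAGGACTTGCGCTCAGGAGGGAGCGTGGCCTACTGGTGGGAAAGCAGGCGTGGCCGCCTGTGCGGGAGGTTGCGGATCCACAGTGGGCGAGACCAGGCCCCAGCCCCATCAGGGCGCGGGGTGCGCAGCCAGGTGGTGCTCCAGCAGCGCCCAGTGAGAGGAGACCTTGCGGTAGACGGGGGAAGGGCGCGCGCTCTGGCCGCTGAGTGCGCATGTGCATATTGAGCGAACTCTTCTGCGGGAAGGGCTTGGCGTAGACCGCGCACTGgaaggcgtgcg

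LINC00607, known from work on endothelial cells, fell and lies between the fibronectin gene FN1, which fell, and MREG, which rose. Its window, on the minus strand (chr2:215843487-215843786), is shown because it was the window of a called LINC gene with a match to TGANTCA. Matches to the motifs searched are in capitals.
LINC00607: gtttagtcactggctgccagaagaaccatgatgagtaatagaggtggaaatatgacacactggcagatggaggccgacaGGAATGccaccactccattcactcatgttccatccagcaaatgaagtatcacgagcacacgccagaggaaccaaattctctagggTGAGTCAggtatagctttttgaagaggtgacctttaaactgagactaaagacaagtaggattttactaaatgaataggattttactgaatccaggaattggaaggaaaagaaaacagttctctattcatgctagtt
The motifs were TGANTCA (the letters bound by AP-1 factors), GGAATG (TEAD factors) and TATAAA (the TATA box), on both strands, with no overlap between these matches. The first stood at position 165 and the second at position 80 of the LINC00607 window. TGANTCA occurred in 7.71% of all windows and in 12.4% of LINC windows, GGAATG in 14% and 17.5%, and TATAAA in 11.5% and 14.9%. Of 15 windows found for LINC genes past the threshold, 1 held TGANTCA, 2 held GGAATG and 2 held TATAAA. The other holders were LINC01091 (GGAATG and TATAAA) and LINC00839 (TATAAA), and the motifs were chosen with results known. A match describes letters and does not show a bound site.

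Few LINC genes reached the level at which most genes were read. Of 458 LINC genes 34.7% reached 4.3 in either culture, against 74.6% of all genes and 82.3% of protein-coding genes. The median signal over all arrays was 3.73 for LINC genes and 5.70 for all genes. Signals of different probe sets are not amounts of RNA, so their order does not say which gene is more abundant. Of the 159 members 134 reached the limit in both cultures, 14 in 2D alone and 11 in 3D alone. A gene that passed through 1 culture had to differ to some extent, so the counts over members below are a description.

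The limit fell within a dense part of the distribution. Just inside it were LINC01606 (higher culture mean 4.32), LINC00668 (4.32) and LINC01432 (4.33), and just outside were LINC02145 (4.295), LINC01569 (4.29) and LINC00235 (4.29). The changes of these 6 genes ran from -0.23 for LINC00235 to 0.19 for LINC01606, and their adjusted p-values from 0.406 to 0.991.

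**Figure D1:**
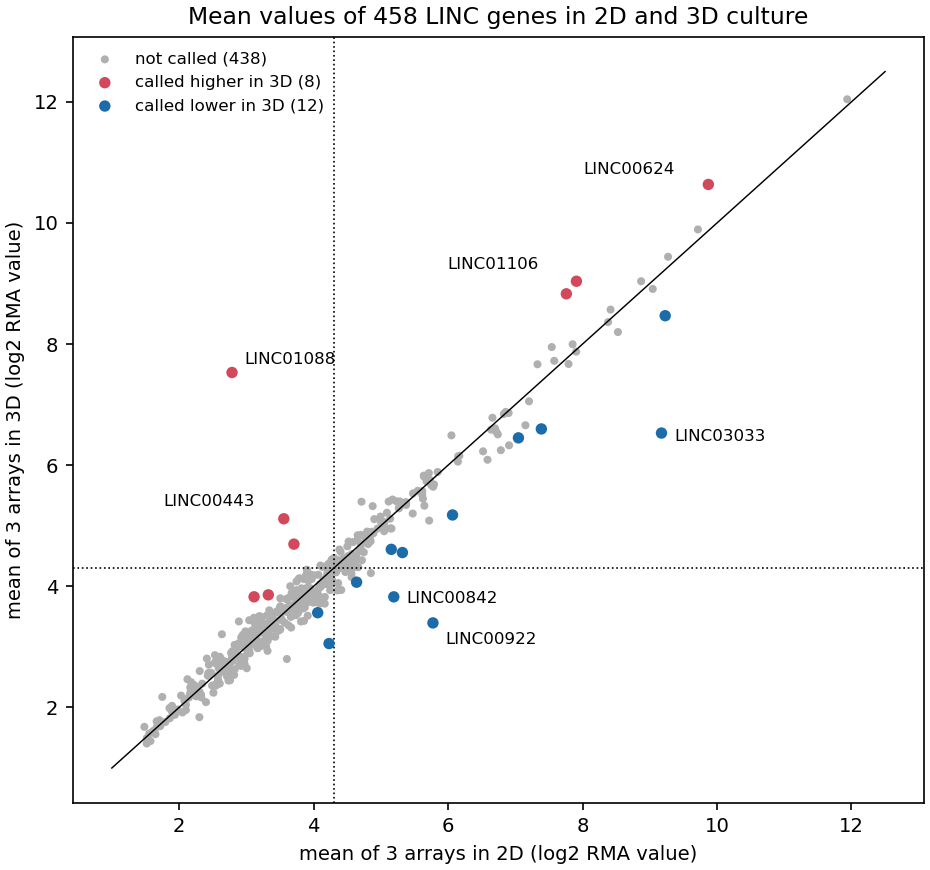
Mean log2 RMA value in 3D (vertical axis) against that in 2D (horizontal axis) for 458 LINC genes, 1 point per gene, with the line of equal values and dotted lines at the limit of 4.3. Most points lie near the line, and the 8 genes called higher and 12 called lower stand off it, LINC01088 farthest.

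Most LINC genes moved little between the cultures. Over all 458, with no limit on level, 8 rose and 12 fell at an adjusted p under 0.05 (limma, adjusted over 14884 genes). That is 4.37%, against 10.0% of all genes, of which 5.23% rose and 4.77% fell. Among the members 6 rose and 10 fell, which is 10.1%, against 12.8% of all genes held to the same limit (6.68% higher and 6.1% lower). The median level was 5.02 for the members and 6.52 for all genes at that limit, so dimmer genes are set against brighter ones. Of the 20 LINC genes with a mean of at least 7 over all arrays, 3 rose and 2 fell. The rises include LINC01106 and LINC01123, whose changes are uncertain as separate results. All genes at that level were not counted, so these counts have no matched share to be set against. Whether the lower shares of LINC genes go with their level was not tested. At least 2-fold, 4 LINC genes rose and 4 fell out of 458, and of all genes 2.88% were called at that size. The median change was -0.02 for the members, -0.01 for all LINC genes and -0.01 for all genes, and 138 of 159 members changed by less than 0.5. The groups did not overlap for 35 members (22.0%, 12 higher and 23 lower), against 29.2% of all genes and 35.3% of all genes at the limit.

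The rule itself ties the direction of some members to the culture in which they reached the limit. Of the 134 members read in both cultures 3 rose and 7 fell (7.46%, against 12.2% of all genes so chosen). All 3 called members of the 14 that reached it in 2D alone were lower in 3D (LINC00922, LINC00842, LINC00648), and all 3 of the 11 that reached it in 3D alone were higher (LINC01088, LINC00443, LINC02275). Of all genes, 1418 of 11100 that reached the limit in either culture were called, and 1291 of 10611 that reached it in both. All genes that reached it in 1 culture alone were not counted by direction, so these counts of members are not a result about LINC genes. Under the limit, 2 genes rose (LINC01091, LINC00615) and 2 fell (LINC00862, LINC01289) out of 299. That is 1.34%. The 10.0% of all genes covers every level, and all genes under the limit were not counted alone, so these shares are of unlike sets. At an unadjusted p under 0.05 (limma) there were 12 higher and 21 lower members out of 159, against 3147 of 11100 genes held to the same limit. Of all genes with no limit on level 23.5% stood at that p.

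The array 3D replicate 1 stood apart from the other 3D arrays. Across members it correlated at 0.965 and 0.966 with 3D replicates 2 and 3, which correlated at 0.987, and the 2D arrays correlated at 0.983 to 0.985. Without it 16 LINC genes rose and 12 fell (6.11%, against 12.8% of all genes), and 18 of the 20 calls were kept. Without 3D replicate 2 the counts were 7 higher and 6 lower (2.84%, against 5.34% of all genes), and without 3D replicate 3 they were 8 and 6 (3.06%, against 5.21%). The counts over all genes thus moved the same way as those of the LINC genes. Among the members, 11 rose and 10 fell without 3D replicate 1, and 6 rose and 5 fell without 3D replicate 2 or without 3D replicate 3.

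LINC01088 read 2.91, 2.89 and 2.56 on the 2D arrays. On the 3D arrays it read 7.11, 7.75 and 7.73. The 3D arrays all lay far above the 2D arrays, and 3D replicate 1 was the lowest of them. The change of 4.74 ± 0.19 (SE, n = 3 and 3) had an adjusted p of 3.72e-05 (limma), and this probe set had no reading above 3 in 2D. It kept its call with any single array left out.

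LINC01088 has 5 probe sets, and all gave higher means in 3D. The brightest is the one above. The next read 2.79, 3.05 and 1.93 in 2D and 6.23, 6.80 and 6.68 in 3D, a change of 3.97 ± 0.31 (SE; adjusted p = 0.00234 over all 53617 probe sets). The third gave 1.53 ± 0.22. The remaining 2 stayed near or below 3 in both cultures, with changes of 0.80 ± 0.16 and 0.77 ± 0.18 that did not pass over all probe sets (adjusted p = 0.0598 and 0.102). The groups did not overlap on any of the 5, so the size of the change depended on the probe set read and its direction did not. The mean of all 5 gave 2.36.

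**Figure D2:**
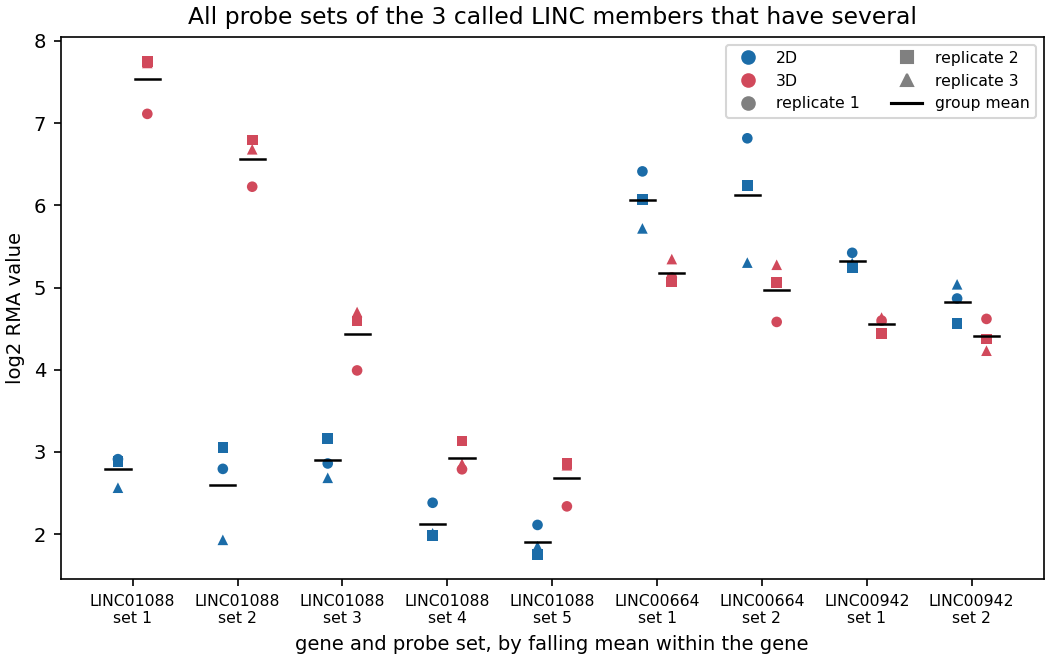
Log2 RMA value (vertical axis) on each of the 6 arrays for every probe set of LINC01088, LINC00664 and LINC00942, with group means as bars; colours give the culture and symbols the replicate. The 5 sets of LINC01088 differ in brightness and are all higher in 3D, and both sets of LINC00664 and LINC00942 have lower means in 3D.

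LINC00443 was the next largest rise. It read 3.60, 3.71 and 3.37 in 2D against 4.81, 5.16 and 5.37 in 3D. No 2D array reached the lowest 3D array, and the 2D readings lay under the lower quartile of all genes (4.18). The change was 1.56 ± 0.16 (SE, n = 3 and 3), or 2.94-fold, with an adjusted p of 0.00107 (limma).

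LINC01106 read 7.98, 7.77 and 7.97 in 2D and 8.90, 9.02 and 9.19 in 3D. LINC01123, a transcript studied in lung cancer, read 7.69, 7.76 and 7.83 in 2D and 8.53, 9.06 and 8.90 in 3D. For both genes every 3D array was above every 2D array. The changes were 1.13 ± 0.11 and 1.07 ± 0.14 (SE; adjusted p = 0.000945 and 0.00363, limma). These are the genes whose start windows share a stretch of 289 bases.

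LINC00624 was bright in both cultures. Its values were 9.73, 9.93 and 9.95 in 2D and 10.52, 10.67 and 10.72 in 3D, so the groups stood apart by more than the range within either. It rose by 0.76 ± 0.11 (SE, adjusted p = 0.00439, limma), or 1.70-fold.

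LINC02275 reached the limit in 3D alone, with 3.75, 3.83 and 3.55 in 2D and 4.69, 4.81 and 4.59 in 3D. Its change was 0.99 ± 0.11 (SE, adjusted p = 0.00168, limma). LINC01091 and LINC00615 stayed under the limit and rose by 0.71 ± 0.09 and 0.53 ± 0.10 (SE; adjusted p = 0.00242 and 0.0141). The dim LINC00615 lost its call without 2D replicate 1 or 3 or 3D replicate 2 or 3 (adjusted p up to 0.0669), while the other 7 rises kept theirs with any single array left out.

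**Figure D3:**
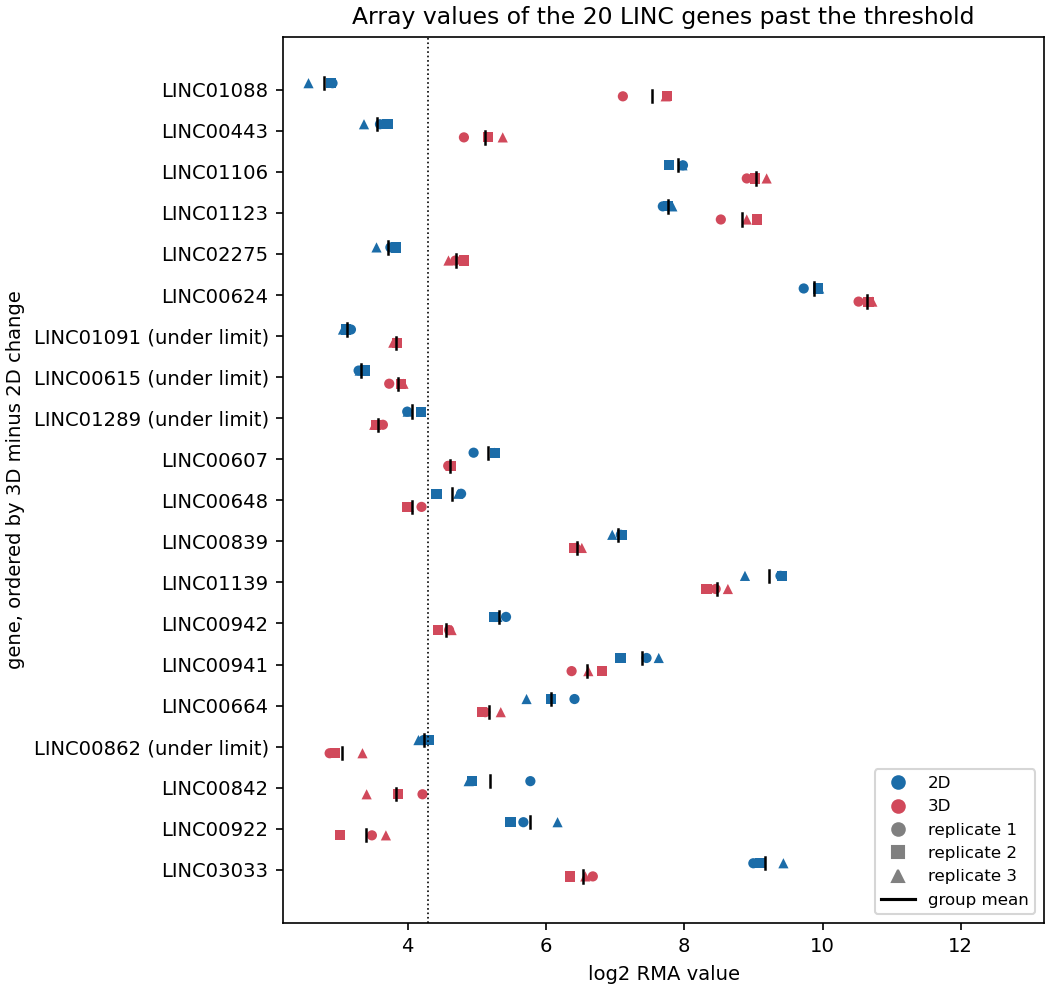
Log2 RMA value (horizontal axis) on each array for the 20 LINC genes past the threshold, ordered by change, with 2D and 3D in different colours, replicates as symbols, group means as bars and the limit of 4.3 dotted. In every gene shown the 2D and 3D points do not overlap, and in 4 genes neither mean reaches the limit.

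LINC03033, the largest fall, read 9.0, 9.09 and 9.43 in 2D. In 3D it read 6.68, 6.35 and 6.57. Both sets of arrays were tight, and they lay more than 2 log2 units apart. The change was -2.64 ± 0.14 (SE, n = 3 and 3; adjusted p = 8.63e-05, limma), and it ran from -2.73 to -2.51 over all alternatives.

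LINC00922 read 5.67, 5.49 and 6.17 in 2D and 3.48, 3.02 and 3.68 in 3D. All 3D arrays were under the lower quartile of all genes, and none came near the 2D arrays. It fell by 2.38 on the log2 scale (SE 0.22; adjusted p = 0.000665, limma), which is 5.20-fold.

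LINC00842 read 5.77, 4.92 and 4.88 in 2D and 4.21, 3.86 and 3.41 in 3D. The groups did not overlap, but each spread widely. The change was -1.37 ± 0.28 (SE, adjusted p = 0.0232, limma), and the call ended when 3D replicate 2 (adjusted p = 0.0697) or 3D replicate 3 (0.0764) was left out. LINC00862, under the limit in both cultures, went from a mean of 4.23 ± 0.08 to 3.06 ± 0.25 (SD, n = 3), a change of -1.18 with an adjusted p of 0.00201.

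The other falls were smaller than 2-fold. LINC00664 changed by -0.89 ± 0.18 (SE), LINC00941 by -0.79 ± 0.17, LINC00942 by -0.76 ± 0.10 and LINC01139 by -0.76 ± 0.17. LINC01139 is also called LINK-A, an RNA known for its part in signalling to HIF1A in breast cancer cells, and it read 9.39, 9.42 and 8.88 in 2D and 8.45, 8.32 and 8.63 in 3D. The lowest 2D array thus lay only a little above the highest 3D array. LINC00839, studied in neuroblastoma, was steadier at 7.08, 7.10 and 6.96 against 6.43, 6.41 and 6.52 (-0.60 ± 0.09). LINC00648 (-0.57 ± 0.13), LINC00607 (-0.55 ± 0.11) and LINC01289 (-0.50 ± 0.10) followed, and the adjusted p of these 8 ran from 0.0034 for LINC00942 to 0.0287 for LINC00648 (limma).

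Several of these smaller falls rested on all arrays being present. LINC00942 and LINC00839 kept their calls with any single array left out. LINC00664 lost its call without 2D replicate 2 or 3D replicate 2 (adjusted p = 0.0694 and 0.0769), and LINC00941 without any of 4 arrays, 2D replicates 1 and 3 and 3D replicates 1 and 3 (0.0527 to 0.0959). LINC01139 passed only with all arrays or without 2D replicate 3 (0.0515 to 0.103 otherwise). LINC00648 lost its call without 2D replicate 1 or 3 or 3D replicate 2 or 3 (0.096 to 0.11). LINC00607 and LINC01289 lost theirs without 2D replicate 2 or 3 or 3D replicate 2 or 3 (0.0751 to 0.0838 and 0.053 to 0.0864).

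LINC00664 and LINC00942 have 2 probe sets each, and both sets of each were lower in 3D on average. The other set of LINC00664 read 6.81, 6.24 and 5.30 in 2D and 4.58, 5.06 and 5.28 in 3D, a change of -1.15 ± 0.38 (SE). Its lowest 2D and highest 3D arrays nearly met. The other set of LINC00942 gave -0.42 ± 0.17 with overlapping groups. Neither passed over all probe sets (adjusted p = 0.248 and 0.343), and with the mean of its sets LINC00664 had an adjusted p of 0.0515 over genes.

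In all, 33 members have several probe sets, 96 between them and up to 8 per gene. Some sets of a gene held identical values on every array, as in LINC01015 and LINC01623, so they are not all separate readings. All sets of a gene gave a change of the same sign in 15 genes, and signs were mixed in 18. The range between the sets of a gene had a median of 0.21 and reached 3.97 in LINC01088. Tested singly over all probe sets, of which 2.39% were called, 4 sets of members with several passed, 3 of them of LINC01088 and the other of LINC00942. Among the members with several sets that were not called, LINC03027 (2 sets, -0.63 and -0.22) and LINC01061 (7 sets, 0.13 to 0.62) had the largest changes on any set, named after their values were seen. With 1 probe set each, LINC00534 (0.68, adjusted p = 0.125) and LINC01512 (-0.63, adjusted p = 0.157, limma) changed as much or more and did not pass.

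Of 20 LINC genes listed for the attention they have had in cancer, 15 were measured, 10 of them members. The list was chosen with earlier results of these data known, so the count passing is a description. LINC01088 rose and LINC00839 fell, and the other 13 did not pass (of all genes 10.0% passed). LINC00467 changed by 0.44 ± 0.13 (SE, adjusted p = 0.0721), which passed with the filter on dim genes (0.045) and with the trended robust variance (0.0496, limma). LINC00958 changed by 0.41 ± 0.13 (0.104). LINC00673 changed by -0.49 ± 0.16 (0.097) and LINC00472 by -0.58 ± 0.27 (0.25, limma). For LINC00472 the array 3D replicate 1 stood low, with 7.02, 7.06 and 6.64 in 2D and 5.68, 6.66 and 6.64 in 3D.

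The remaining 9 gave small changes that did not pass. Their changes were -0.38 for LINC01133, -0.34 for LINC00511, -0.21 for LINC00707 and -0.17 for LINC00857. LINC00324 gave -0.04, LINC00882 0.11, LINC00665 0.14, LINC01116 0.19 and LINC00261 0.32, and all 9 had adjusted p-values of 0.248 or more. Without 3D replicate 1, LINC00673 (-0.65, adjusted p = 0.0133), LINC00958 (0.52, 0.0319) and LINC00261 (0.52, 0.0347) passed.

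The 5 members with the brightest probe sets were described whatever their change, with brightness used only to choose them. LINC00624, described above, is 1 of them, and the other 4 held nearly the same values in both cultures. LINC00987 had means of 11.94 ± 0.02 in 2D and 12.04 ± 0.13 in 3D (SD, n = 3), and LINC02582 had 9.04 ± 0.19 and 8.91 ± 0.07. LINC01347 had 9.72 ± 0.20 and 9.89 ± 0.58, and LINC01000 had 9.27 ± 0.16 and 9.44 ± 0.61. None of these 4 passed (adjusted p = 0.58 to 0.791, limma).

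The wide 3D spread of LINC01347 and LINC01000 came from 3D replicate 1. LINC01000 read 8.73 there against 9.78 and 9.81 on the other 3D arrays, and 9.46, 9.15 and 9.21 in 2D. LINC01347 read 9.23 against 10.22 and 10.24, with 9.92, 9.54 and 9.69 in 2D. In 12 members 3D replicate 1 lay at least 0.5 below both other 3D arrays, and in 11 at least 0.5 above both.

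Others of these 12, named after their values were seen, were LINC01061 (8.36 on 3D replicate 1 against 9.41 and 9.35), LINC00999 (7.90 against 8.87 and 8.94) and LINC01002 (7.25 against 8.26 and 8.11). LINC01002 and LINC01061 start in alike sequence, with 83.1% identity over 325 aligned positions, so their values may not be separate. Without 3D replicate 1, 10 LINC genes passed that had not passed with all arrays, and 3 of them were among these 12, LINC00534 (0.94, adjusted p = 0.0174), LINC01000 (0.52, 0.0368) and LINC01061 (0.51, 0.0252, limma). LINC03027 also passed (-0.81, adjusted p = 0.0228).

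The 11 members that stood high on 3D replicate 1 included LINC00863 (8.10 against 7.49 and 7.42, with 7.40, 7.94 and 8.04 in 2D) and LINC00693 (6.01 against 5.26 and 5.33, with 5.40, 5.54 and 5.50 in 2D), also named after their values were seen. None of the 11 was called, with all arrays or without that array. Over all 6 arrays, 3D replicate 1 held the highest value of 51 members and the lowest of 30 out of 159.

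The protein-coding genes on either side of the 20 called LINC genes were read in the same fit. RefSeq gave 42 such neighbours, overlapping genes included, of which 27 were measured. They are the nearest on each side at any distance, up to 4330 kilobases for ZNF37A from LINC00839. FN1 lies 175 kilobases and MREG 95.8 kilobases from LINC00607. Of these 27, 8 passed, 6 in the direction of the LINC gene and 2 against it. Among all protein-coding genes 11.7% passed, and among all genes 10.0%. All these values come from the same 6 arrays, so the pairs are given as values side by side, with no test of the relation.

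LINC02275 lies beside MFAP3L, which changed by 0.70 ± 0.16 (SE, adjusted p = 0.0356). LINC00624 lies between BCL9, a co-activator of Wnt signalling, which rose by 0.53 ± 0.11 (0.0254), and the chromatin remodeller gene CHD1L, which changed by -0.83 ± 0.10 (0.00272, limma). The neighbours of LINC00624 thus went opposite ways.

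LINC00607 lies between FN1 (-1.38 ± 0.24 SE, adjusted p = 0.0106) and MREG, which rose by 1.28 ± 0.11 (adjusted p = 0.000427). FN1 encodes the matrix protein fibronectin, and MREG encodes melanoregulin. LINC00842 lies between ANXA8L1 (-0.58 ± 0.11, adjusted p = 0.0151) and NPY4R (-1.75 ± 0.27, 0.00627), which both have near-identical copies elsewhere and are uncertain for that reason. LINC00862 lies beside the zinc finger gene ZNF281 (-0.46 ± 0.10, 0.0287, limma).

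The largest changes had no such partner among the measured genes. PAQR3 and GK2, on either side of LINC01088, changed by 0.37 ± 0.12 (SE, adjusted p = 0.0915) and -0.01 ± 0.12 (0.964), and NAA11, which it overlaps, was not measured. LINC03033 lies between PRKCH and HIF1A, which encodes the oxygen-regulated transcription factor subunit. Neither was among the named genes, so their changes are not known here. An antisense RNA of the HIF1A locus, HIF1A-AS2, fell from 6.84 ± 0.07 to 6.26 ± 0.20 (SD, n = 3, adjusted p = 0.0249, limma). The neighbours of LINC00922, CDH11 and CDH5, were also not among the measured genes.

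**Figure D4:**
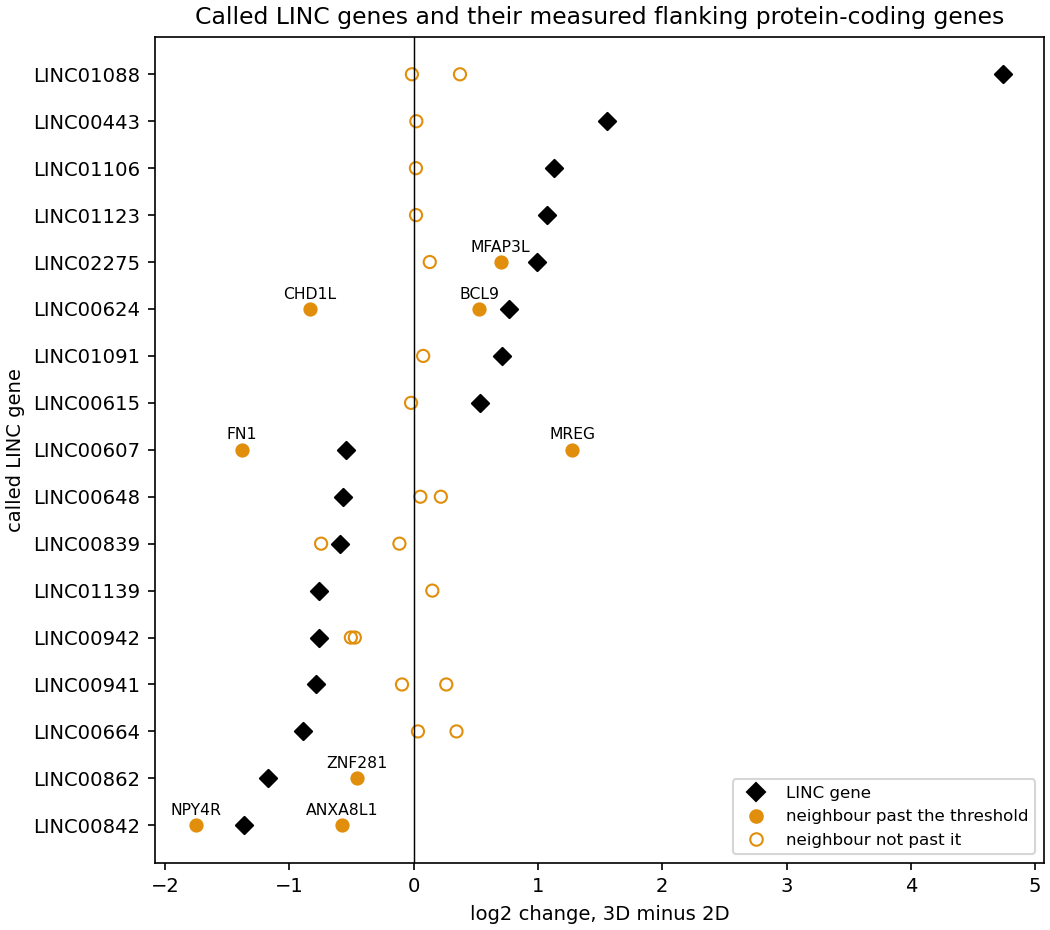
Log2 change from 2D to 3D (horizontal axis) of the called LINC genes (diamonds) with a measured neighbour and of their flanking protein-coding genes (circles, filled where past the threshold). The 8 filled circles are named, and around LINC00607 and LINC00624 they lie on both sides of 0.

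The label of the cells was checked against markers. Of 11 epithelial and ovarian markers 10 were measured and all had means of at least 4.3, among them PAX8, a factor of the Müllerian epithelium (10.18 in 2D and 10.34 in 3D). Their mean over the list was 7.19 to 7.22 on the 2D arrays and 7.70 to 7.92 on the 3D arrays, with 4 higher and 1 lower. Of 9 leukocyte markers 5 were measured, without PTPRC; the list mean was 5.32 to 5.46 in 2D and 5.68 to 5.85 in 3D, CD68 and LYZ rose, and CD14 (-0.41), NKG7 (-0.24) and TYROBP (-0.07) did not pass. Of 10 fibroblast and endothelial markers 5 were measured (4.04 to 4.14 and 4.20 to 4.46). PECAM1 rose by 1.27, and DCN (0.12), KDR (-0.11), VWF (-0.04) and THY1 (-0.01) did not pass. RMA values hold no true zero, and the part of these differences in the LINC results was not tested.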

How the data were processed

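Total RNA (100 ng per sample) was labelled and read on 1 array per sample, 3 in 2D and 3 in 3D. The deposited log2 values were made by the authors with RMA, per the submitters' processing notes; version, probe grouping and filters: not given in the sources used here. Their range (0.30 to 13.87) shows the scale. RMA compresses changes of dim probe sets. The platform annotation gave 1 symbol alone to 16098 of 53617 probe sets. Those with no symbol or several were left out of the fit over genes. All 458 LINC genes matched a RefSeq gene table (GRCh38.p14), each typed as lncRNA.

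The cultures were compared with limma 3.58.1 in R 4.3.3, group alone, two-sided, Benjamini-Hochberg over 14884 genes at 0.05. On simulated data of 14884 genes with independent noise, the fit called 46% of 50 genes raised 1.5-fold and 98% of 50 raised 2-fold. It called 94% of 50 lowered 2-fold, with 7 false calls. The simulation held no outlying array and took genes at any level, so it does not give the recovery of dim LINC genes here. Promoter windows came from RefSeq and were aligned with Biopython 1.88. The members and lists were chosen with earlier results of these data known. Named were all called LINC genes, members changed at least 2-fold with groups apart, the 5 brightest members, those beside the limit and a list of 20, with flanking genes. Alternatives were repeated quantile normalization, median centring, a dim-gene filter, the mean or most variable probe set, all probe sets singly, trended robust variance, a replicate block, other level limits and each array left out. The number of arrays limits the precision.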

Additional observations from a re-analysis of the deposited data

How the results depend on the processing

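Of the 20 calls among LINC genes, 11 were kept in every alternative that tested the gene, and none changed sign. Repeating the quantile normalization, centring array medians, the trended robust variance and the filter on dim genes (which left 15 of the 20 to test) ended none of them, and the mean and the most variable probe set each ended 1, that of LINC00664. Testing all probe sets singly, adjusted over more tests, gave 661 genes called in all, 5 LINC genes lower and 4 members lower, against 1488, 12 and 10. The replicate numbers did not pair the arrays (correlations of deviations of -0.279, -0.0568 and -0.183 between same-numbered arrays), and the replicate block gave 760 genes, 5 LINC genes lower and 4 members lower; LINC00839 lost its call only there (adjusted p = 0.0506). With single arrays left out, all genes called ran from 775 to 1899, LINC genes higher from 7 to 16 and lower from 6 to 12, and members higher from 6 to 11 and lower from 5 to 10. Limits of 4, 4.6 and a mean over all arrays gave 201, 122 and 148 members, with 5 or 6 higher and 10 to 12 lower. The cause of these differences was not tested. Dim probe sets limit what can be read: 299 LINC genes stayed under 4.3 in both cultures.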

Other observations

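Other classes of long non-coding RNA, pooled, gave few calls and more falls than rises, and the share called differed by class. Of 489 antisense RNAs 3 rose and 8 fell (limma), of 99 divergent transcripts 0 rose and 5 fell (5.05%), and of 26 microRNA host genes 0 rose and 4 fell (15.4%). Of 9 small nucleolar RNA host genes 0 rose and 2 fell (22.2%), and of 29 intronic and 6 overlapping transcripts 0 passed, with 3 and 2 at an unadjusted p under 0.05. Together these classes held 658 genes with 3.34% called, against 4.37% of the LINC genes and 10.0% of all genes. CLDN10-AS1, antisense to a claudin gene, read 3.35, 3.44 and 3.24 in 2D and 5.54, 5.88 and 5.74 in 3D, a change of 2.37 ± 0.12 (SE, adjusted p = 5.49e-05). APCDD1L-DT, divergent from APCDD1L, changed by -1.49 ± 0.14 (adjusted p = 0.000799). Both were named after their values were seen.

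Of 38 well-known long non-coding RNAs 24 were measured, and 1 rose and 3 fell (limma). That is 16.7%, against 10.0% of all genes. This list too was chosen with earlier results of these data known, so the share is a description. HCP5, of the MHC region, rose by 1.07 ± 0.18 (SE, adjusted p = 0.00981). ZFAS1, a host of small nucleolar RNAs, read 8.53, 8.52 and 9.02 in 2D and 7.33, 7.48 and 7.48 in 3D, a change of -1.26 ± 0.15 (adjusted p = 0.00204). SNHG5 (-0.75 ± 0.16) and MIR31HG (-0.68 ± 0.14) fell as well. The nuclear RNA MALAT1 gave 0.17 ± 0.21 (adjusted p = 0.714), with 11.54 on 3D replicate 1 against 12.38 and 12.23 on the other 3D arrays.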
